A study of Mus musculus with 25 samples.

Results

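The crosslink sites of SRSF7 lacking 27 amino acids (labelled D27aa) were compared with those of wild-type SRSF7 (WT), both fused to GFP and both isolated with an anti-GFP antibody. The libraries were chosen by their titles: the 2 UV-treated D27aa libraries (replicates 1 and 2) and the 3 UV-treated WT libraries (replicates 2, 3 and 4), 5 of the 25 libraries in all. All 5 came from P19 cells, a mouse embryonal carcinoma line, irradiated with UV light at 254 nm. The labels give the genotype SRSF7-GFP OE for WT and SRSF7D27aa-GFP for D27aa. They do not say which residues were removed, how strongly either protein was made, from which promoter, in how many clones, or how much endogenous SRSF7 remained beside it. The design text speaks of 2 to 3 biological replicates of each GFP-tagged protein.

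SRSF7 is a serine/arginine-rich (SR) protein. SR proteins bind RNA through an RNA recognition motif and contact other splicing and export factors through an arginine- and serine-rich domain. SRSF7 differs from its close relatives in carrying a small zinc knuckle between these domains, and it takes part in splice site choice, mRNA export and 3′ end processing. In iCLIP, UV light joins the protein to the RNA it touches, the complex is immunoprecipitated, and cDNA synthesis mostly ends next to the nucleotide where a remnant of the protein is attached. Each distinct cDNA is 1 crosslink event, and the deposited score of a nucleotide is its number of events. Where many events lie depends both on how much of an RNA is present and on how often the protein is crosslinked to it, and the iCLIP values alone cannot tell these apart. No genome or annotation of the build of these files (mm9) was used here, so positions carry no gene, exon, intron or sequence.

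D27aa 1 and D27aa 2 held 376870 and 388768 events. WT 2, WT 3 and WT 4 held 221746, 1099389 and 3952779 events, so that the WT libraries spanned the D27aa depth on both sides. Between 93.0% and 96.7% of the crosslinked nucleotides of each of the 5 libraries carried a single event. The file headers name the same identifier for D27aa 1 and WT 2, and another for D27aa 2, WT 3 and WT 4. Header replicate numbers differ from the titles (WT 3 and WT 4 both carry 3 there), and titles were used. D27aa 1 and D27aa 2 carry the same 4-base barcode, while the barcodes of WT 2, WT 3 and WT 4 differ from it at 2 or 3 bases. The WT library without UV, used below for its values, carries the D27aa barcode under another header identifier. At the depth of the shallower library, window counts differed between D27aa 1 and D27aa 2 with a chi-square of 1.15 per window and between WT 3 and WT 4 with 1.09, both above counting noise (chi-square p = 4.05e-39 and 1.58e-47). They were therefore not treated as one library deposited more than once, but this does not show that they are separate samples. The 1.09 was taken at 1098442 events each. At 221521 events each, the variance between WT 3 and WT 4 was 1.04 times that expected from counting over all windows. It was 1.0 times without the 100 windows with the most events. Nothing beyond the design text says that they came from separate cultures, and p-values measure the spread between these samples, which may be technical.

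Not every library lay closest to those of its own label. The first exception was WT 2. With each pair thinned to the same total, the variance of window counts between libraries, divided by that expected from counting alone, was 1.13 for D27aa 1 against D27aa 2 and 1.04 for WT 3 against WT 4. It was 1.87 for WT 2 against WT 3 and 1.96 for WT 2 against WT 4. D27aa 1 and D27aa 2 gave 1.64 and 1.78 against WT 2, 1.99 and 2.06 against WT 3, and 2.06 and 2.15 against WT 4. Over all windows WT 2 was no closer to the other WT libraries than to either D27aa library. Without the 100 windows with the most events its ratios were 1.57 and 1.63 to WT 3 and WT 4 and 1.51 and 1.62 to D27aa 1 and D27aa 2, so that WT 3 then stood between the D27aa libraries. Results are given with and without it.

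The other was the control library labelled D27aa without UV, with 34947 events. At equal depth of the libraries it was set against, 3.75% of its events lay on a crosslinked nucleotide of WT 4, compared with 2.28% for D27aa 1 and 2.28% for D27aa 2. The shares were 2.80% for WT 2 and 2.65% for WT 3. It shares its header identifier with D27aa 2, WT 3 and WT 4, and its barcode differs from that of WT 4 at 1 of 4 bases. The same barcode is carried by WT 2 and by an anti-SRSF7 library (GFP_OE 4), both under other header identifiers. In windows found lower in D27aa (described after the higher ones) it held 3036 CPM in sum, and WT without UV held 2921 CPM. Those windows were chosen for a low D27aa level, so no conclusion is drawn from this. The part of the shared identifier or barcode in any result was not tested, and the D27aa control is used here only for its values. The WT library without UV held 89070 events and carries the barcode of D27aa 1 and D27aa 2. The part of this shared barcode in any result was not tested either. Its nucleotides drew 3.69% of the events of D27aa 1 and 4.16% of those of D27aa 2, against 0.938% and 0.90% for the shallower D27aa control.

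Crosslink events of D27aa were more often stacked on a single nucleotide than those of WT 3 and WT 4, and by a smaller margin than those of WT 2. With every library thinned to 221521 events, nucleotides with 2 or more events held 9.24% and 9.52% of the events of D27aa 1 and D27aa 2. The shares were 9.20% in WT 2, 5.08% in WT 3 and 3.49% in WT 4. Nucleotides with 5 or more events held 3.33% and 3.71% in D27aa, compared with 2.86%, 1.17% and 0.448% in WT. Both D27aa libraries were above all 3 WT libraries on both measures, with WT 2 close beneath them. At the same depth events reached 92445 and 92577 windows of 5000 nt in D27aa and 89033, 85104 and 84571 in WT, so the stacking went together with a wider spread over windows. The exact permutation test over the 5 libraries (two-sided, 10 single measures) gave p = 0.2 for each of these (adjusted p = 0.5). With 2 libraries against 3 it cannot go below 0.1. At 221521 events, nucleotides with 2 or more events held 11.0% of the events of an anti-SRSF7 library of SRSF7-GFP OE cells (GFP_OE 4). They held 2.44% and 2.53% in another GFP-tagged variant (mutZn), with 11782376 and 6436730 events before thinning. The share was 13.0% in the anti-SRSF7 library of cells with the genotype WT (211343 events) and 7.37% in WT without UV (88997 events). Whether stacking depends on the depth before thinning was not tested.

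**Figure D1:**
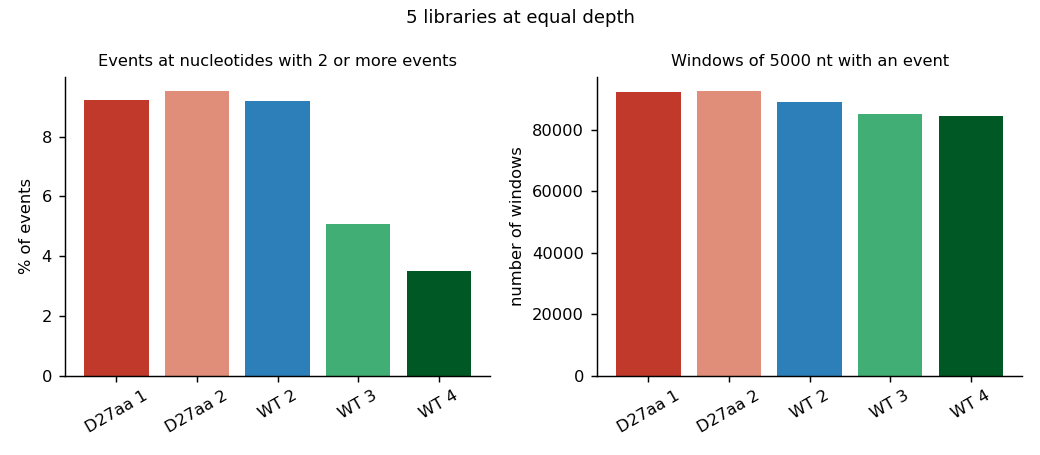
Share of events at nucleotides with 2 or more events (left, %) and number of 5000 nt windows with an event (right) for each of the 5 libraries thinned to 221521 events, 1 bar per library. WT 2 at 9.20% stands beside D27aa 1 and D27aa 2 at 9.24% and 9.52%, while WT 3 and WT 4 lie at 5.08% and 3.49%.

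Events of the 2 proteins fell on the same nucleotides more often than on shifted ones. The overlap was larger with WT 2 than with WT 3 and WT 4. At 221521 events each, 7.53% of the events of D27aa 1 fell on a nucleotide with an event in D27aa 2, and 7.88% the other way. The nucleotides of WT 2 drew 6.52% and 6.81% of the events of D27aa 1 and D27aa 2. Those of WT 3 drew 4.24% and 4.43%, and those of WT 4 drew 3.63% and 3.71%. Between WT 3 and WT 4 the shares were 4.03% and 3.4%, close to those of D27aa with these libraries. All of these are above the share found when one library is shifted by 5 to 50 nt, by 3.69 and 4.0 times within D27aa, by 2.99 and 3.15 times for WT 2, and by 1.95 to 2.20 times for WT 3 and WT 4. For the nucleotides of WT without UV (88997 events) the D27aa ratios were 2.95 and 3.27. For those of D27aa without UV (34916 events) they were 2.14 and 2.03. Coincidence above the shifted share was thus also found in libraries labelled as without UV, and it does not by itself show shared crosslinking. WT without UV carries the barcode of D27aa 1 and D27aa 2, and the part of this in its ratios was not tested. The mean share of D27aa events at WT nucleotides was 4.89% ± 1.57 (SD over the 3 WT libraries), and 4.0% without WT 2. In both D27aa libraries the coincidence was highest at exactly the same nucleotide and fell off within about 20 nt on either side, for every WT library. No shift in this range gave a higher share than a shift of 0.

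**Figure D2:**
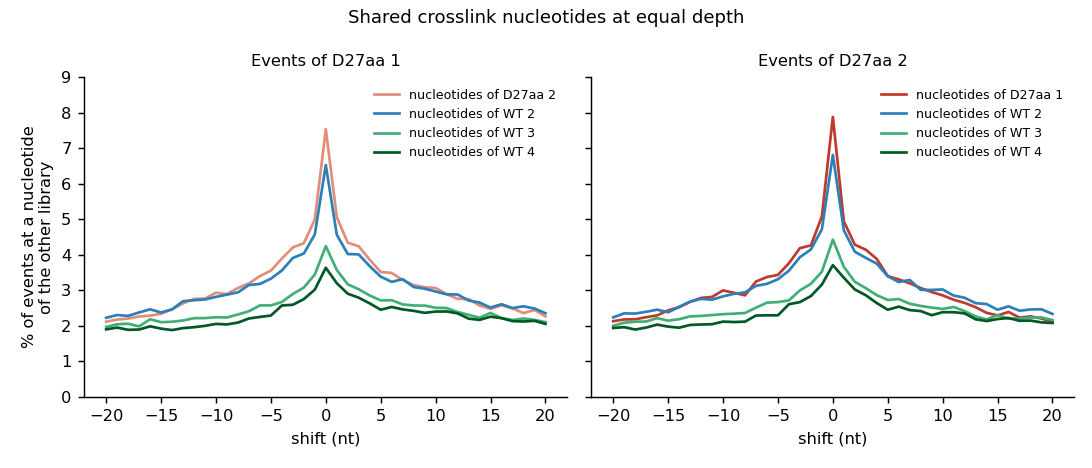
Percentage of the events of D27aa 1 (left) and D27aa 2 (right) that fall on a crosslinked nucleotide of another library when that library is shifted by −20 to 20 nt (x axis), all libraries at 221521 events, 1 line per library. Every line peaks at a shift of 0, at 7.53% and 7.88% for the other D27aa library, at 6.52% and 6.81% for WT 2 and at 3.63% to 4.43% for WT 3 and WT 4.

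A small set of nucleotides carried repeated events in both D27aa libraries. At equal depth 952 nucleotides had 3 or more events in D27aa 1 and in D27aa 2, 28 of them on the mitochondrial chromosome. They held 7873 and 8401 events in D27aa, the values that chose them. The same nucleotides held 5694 events in WT 2, 1619 in WT 3 and 909 in WT 4, at the same depth. Of the 952, 85.8% had an event in WT 2, 55.6% in WT 3 and 46.6% in WT 4. In an anti-SRSF7 library of SRSF7-GFP OE cells (labelled GFP_OE, replicate 4) 76.9% had one, and in the anti-SRSF7 library of cells with the genotype WT 58.4%, with 211343 events. In the WT library without UV 56.5% had one, with 88997 events, and in D27aa without UV 11.3%, with 34916 events. Many recurrent nucleotides thus also had events in a library labelled as without UV. That WT library carries the D27aa barcode, and the part of this was not tested. The corresponding set of WT 3 and WT 4 was smaller, 343 nucleotides, of which 59.2% and 63.0% had an event in D27aa 1 and D27aa 2, and 71.1% in WT 2.

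Most of the strongest D27aa nucleotides show the same order of libraries. They are named here after their values were seen and are a description. On chromosome 6, minus strand, position 128749495 held 150 and 145 events in D27aa 1 and D27aa 2, and 56, 35 and 41 in WT 2, WT 3 and WT 4. Per 1000000 placed events (CPM) these were 398 and 373 CPM in D27aa and 253, 31.9 and 10.4 CPM in WT. The D27aa libraries were highest, WT 2 was next, and WT 3 and WT 4 were far below. Position 128749489, 6 nt away, held 151 and 127 events in D27aa but 26, 7 and 1 in WT. On chromosome 13, minus strand, position 22113028 held 128 and 135 events in D27aa and 61, 34 and 45 in WT. On chromosome 17, minus strand, position 80604126 reached 279 and 371 CPM in D27aa and 203, 1.82 and 2.79 CPM in WT. On chromosome 9, minus strand, position 78023148 reached 335 and 312 CPM in D27aa and 153.5, 12.7 and 9.12 CPM in WT. In CPM, D27aa lay at each of these nucleotides above all WT libraries, with WT 2 between the groups. Others of the 10 strongest D27aa nucleotides did not keep that order. On chromosome 17, position 80604034 of the minus strand held 313 and 203 CPM in D27aa and 217, 5.46 and 3.80 CPM in WT, and position 39984882 of the plus strand 196.5 and 299 CPM in D27aa and 208, 58.3 and 31.7 CPM in WT. At both, WT 2 lay between the D27aa libraries. The nucleotides were ranked by their mean level in D27aa, which favours D27aa as the highest. WT without UV lay above WT 3 and WT 4 at each nucleotide named here except 39984882 (44.9 CPM). It held 135 CPM (12 events) at 128749495 and 78.7 CPM (7 events) at 78023148. Events at these nucleotides were thus also found in a library labelled as without UV, although D27aa without UV held at most 1 event at each. WT without UV carries the barcode of both D27aa libraries, and the part of this in its values was not tested.

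Strong nucleotides of WT did not all follow that order. Position 39984552 on chromosome 17, plus strand, held 7 and 11 events in D27aa (18.6 and 28.3 CPM) and 39, 193 and 70 in WT (176, 176 and 17.7 CPM). Here WT 2 and WT 3 were about equally high, and WT 4, the deepest library, lay below both D27aa libraries. Position 57391793 on chromosome 16, minus strand, reached 63.7 and 79.8 CPM in D27aa and 117, 168 and 60.8 CPM in WT. Position 123438558 on chromosome 9, minus strand, was highest in WT 2 at 497 CPM, lay at 234 and 242 CPM in D27aa, and at 26.4 and 16.2 CPM in WT 3 and WT 4.

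Of 6740 windows of 5000 nt with enough events to test, 186 differed between D27aa and WT over all 5 libraries (adjusted p under 0.05, a negative binomial quasi-likelihood test with limma's moderated spread and Benjamini-Hochberg adjustment), which is 2.76% of those tested. D27aa was higher in 140 windows (2.08%) and lower in 46 (0.682%). The groups did not overlap in CPM in 134 of the 140 and in 42 of the 46. Over all windows tested the groups did not overlap in 2396 (35.5%), of which 942 (14.0%) were higher and 1454 (21.6%) lower in D27aa. An unadjusted p under 0.05 was found for 1131 windows. The median log2 fold change over all tested windows was -0.01.

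Leaving out WT 2 raised the calls to 660 (9.79%), with 383 higher (5.68%) and 277 lower (4.11%), and all 140 and 46 windows were among them. With WT 2 left out and the other 4 libraries thinned to one depth there were 640, 349 higher and 291 lower, sharing 304 of the 383 and 221 of the 277. The larger count was thus of similar size at equal depth. With WT 2 kept and all libraries thinned, 38 windows were called (0.564%), 37 higher (0.549%) and 1 lower (0.0148%). With each nucleotide counted once whatever its score there were 58 (0.861%), 38 higher (0.564%) and 20 lower (0.297%). Leaving out any other library left 23 to 66 calls, of which 1 each was lower: 66 without D27aa 1, 28 without D27aa 2, 31 without WT 3 and 23 without WT 4. Without a D27aa library that group is a single library, assumed to vary like the WT libraries. The header identifier as a block gave 108 calls, 91 higher and 17 lower, with 80 of the 140 and 15 of the 46 among them, and limma-voom gave 533, 465 higher and 68 lower, with 134 of the 140 and 3 of the 46 among them. Scaling moved the split of higher to lower calls: with library totals alone, 139 windows were higher and 73 lower. Within the identifier of D27aa 1 and WT 2, the 140 higher and 46 lower windows had median log2 ratios of 1.22 and -1.43, and within that of D27aa 2, WT 3 and WT 4 medians of 2.98 and -2.02. Their direction was that of the fit in 136 and 45 windows in the first and in 140 and 46 in the other, against 4488 and 5576 of all 6740 windows. These libraries also made the calls, so the direction is no independent check.

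**Figure D3:**
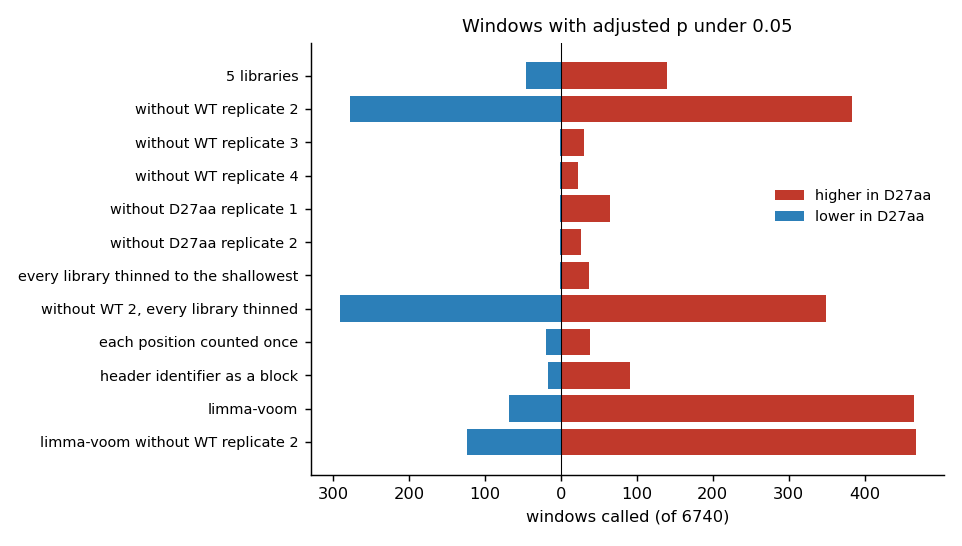
Number of windows called (of 6740) with an adjusted p under 0.05 under each choice of libraries, depth or test, higher in D27aa to the right and lower to the left. All 5 libraries gave 140 and 46, leaving out WT 2 gave 383 and 277, and thinning every library to the shallowest gave 37 and 1.

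In the windows higher in D27aa a larger share of the events lay on 1 nucleotide than in the windows tested as a whole. In the 140 windows the strongest nucleotide held a median of 34.0% of the D27aa events, compared with 7.69% over all windows tested, and each crosslinked nucleotide held a median of 3.81 events, compared with 1.06. They held a median of 14 D27aa nucleotides, and 44 of them held 20 or more. In 35 of the 140 (25%) more than 50% of the events lay on 1 nucleotide, against 59 of all tested windows (0.875%). The strongest nucleotide was the same in both D27aa libraries in 91 windows (65.0%), against 460 (6.82%). That nucleotide also had an event in WT 2 in 90 of the windows, in WT 3 in 63 and in WT 4 in 69. Over all 6740 windows these counts were 807, 809 and 1595. They were taken at full depth, which differs between the WT libraries, so they do not compare these libraries with each other. Windows with stacked events have fewer independent positions, and 33 of the 140 were still called when each position was counted once.

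WT 2 lay between D27aa and the other WT libraries in most of these windows. The median level was 57.1 and 73.4 CPM in D27aa 1 and D27aa 2, and 27.1, 10.0 and 7.60 CPM in WT 2, WT 3 and WT 4. WT 2 was the highest WT library in 114 of the 140 (81.4%), against 41.4% of all tested windows. The levels summed over the 140 windows were 11428 and 13978 CPM in D27aa, 4975, 2064 and 1743 CPM in WT, 5618 CPM in WT without UV and 2463 CPM in D27aa without UV. In the other GFP-tagged variant, labelled mutZn and also isolated with anti-GFP, they were 2199 and 2250 CPM. In the anti-SRSF7 libraries labelled GFP_OE they were 4974 and 5817 CPM, and in that of WT cells 4888 CPM, all near WT 2 and, like mutZn, all above WT 3 and WT 4. The windows were called for a WT level below D27aa, which favours other libraries lying above WT. No conclusion is drawn from their place above WT 3 and WT 4. The D27aa control had no event in 94 of the 140 windows and the WT control none in 37, and the WT control exceeded the D27aa level in 11. Over all 6740 windows these counts were 2174, 642 and 3055. The 140 windows were chosen for a high D27aa level, so the low count of windows where the WT control exceeded it follows from that choice.

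**Figure D4:**
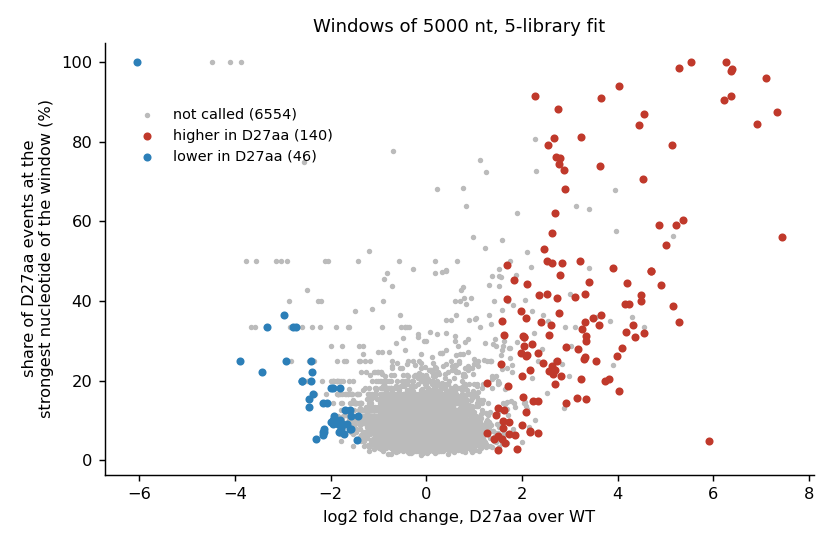
Log2 fold change of D27aa over WT (x axis) against the share of D27aa events at the strongest nucleotide of the window (y axis, %), 1 point per window tested that held a D27aa event (a window without one has no share and is not drawn), with the higher and lower windows called in colour. Higher windows reach a median share of 34.0%, compared with 7.69% over all windows, and the point at a log2 fold change of 5.92 and 4.76% is the window on chromosome 15.

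The 12 higher windows with the largest fold changes, of those with non-overlapping groups, had log2 fold changes of 5.38 to 7.43, and 11 of them rested on 7 or fewer D27aa nucleotides. The largest was on chromosome 3, minus strand, 136950001 to 136955000, with 34.5 and 159.6 CPM in D27aa and 4.51, 0 and 0 CPM in WT. The groups were far apart, but the D27aa libraries differed widely from each other. Its log2 fold change was 7.43 ± 1.57 (SE, adjusted p = 0.00135), a size that depends on the added events (0.5 per library on average, in proportion to library size). From the summed events, 75 against 1, the ratio per event placed was 517 with a 95% counting interval of 89.9 to 20675. Position 136950479 alone carried 8 and 34 of the D27aa events, and neither control had an event in the window.

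On chromosome 14, plus strand, the window 48410001 to 48415000 held 159 and 247 CPM in D27aa and 22.6, 0 and 0 CPM in WT (log2 7.10 ± 1.12 SE, adjusted p = 0.00220). Of its events 96.2% lay on position 48410542, with 60 and 90 events in D27aa and 5, 0 and 0 in WT, and the WT control held 3 events in the window. WT 2, the shallowest of the 5 libraries, had 5 events at a nucleotide where WT 4, the deepest, had none. On chromosome 10, plus strand, the window 94570001 to 94575000 had all its D27aa events on position 94573966, 21 and 33 of them, against 3, 0 and 0 in WT (log2 6.26 ± 1.09 SE, adjusted p = 0.00135). On chromosome 5, plus strand, 71640001 to 71645000 had all on position 71640868, 16 and 23 against 4, 0 and 0 (log2 5.53 ± 1.13 SE, adjusted p = 0.00527). In these 3 windows every WT event came from WT 2.

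WT 2 was low as well in some windows of this kind. On chromosome 9, minus strand, 29500001 to 29505000 held 149 and 77.2 CPM in D27aa and 4.51, 3.64 and 2.03 CPM in WT (log2 5.38 ± 0.47 SE, adjusted p = 8.82e-05), and 60.5% of its D27aa events lay on position 29503295. On chromosome 5, minus strand, 29745001 to 29750000 held 37.2 and 46.3 CPM in D27aa and 0, 0 and 0.253 CPM in WT (log2 6.23 ± 0.93 SE, adjusted p = 0.00109). A window on chromosome 18 had no event in any WT library and 10 and 38 in D27aa, which is at least 109-fold higher against a floor of 3 events over the WT group. Of the 12, all were called without WT 2 and 10 with every library thinned, but 1 with each position counted once, 6 by limma-voom and 3 without D27aa 2.

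**Figure D5:**
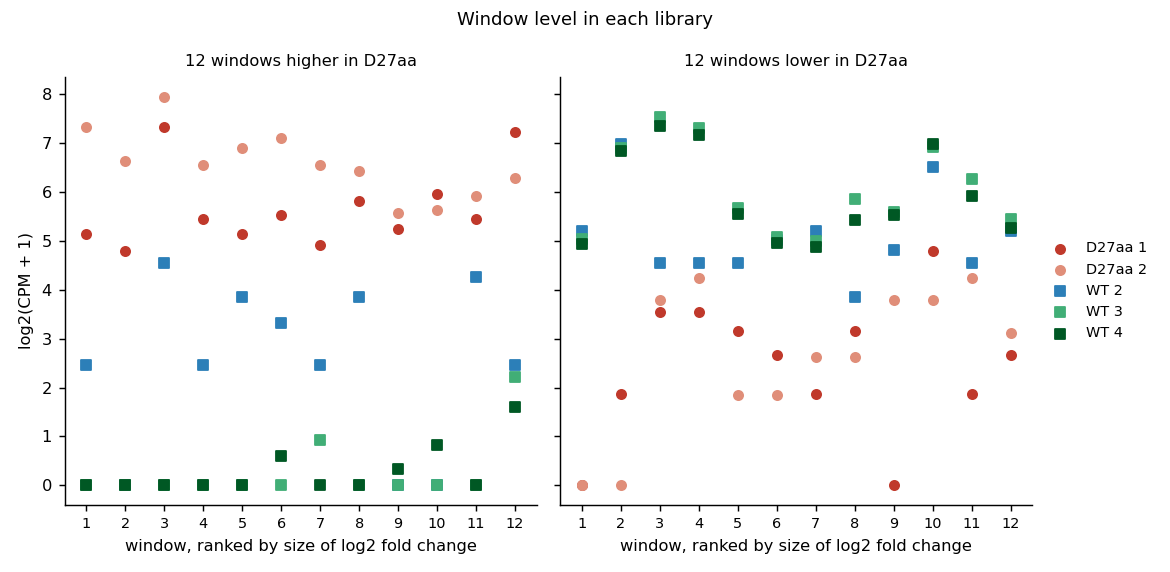
Level of the 12 windows with the largest fold changes in each direction, log2(CPM + 1) on the y axis, 1 point per library, windows ranked by fold change on the x axis (higher in D27aa left, lower right). On the left 11 of the 12 windows rest on 7 or fewer D27aa nucleotides, and WT 2 is mostly the highest WT library; on the right the D27aa points lie below all WT points in every window.

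The 1 broad window among these 12 was on chromosome 15, minus strand, 75730001 to 75735000. It held 61.1 and 48.9 CPM in D27aa (23 and 19 events) and 0, 0 and 0.760 CPM in WT (0, 0 and 3 events). The D27aa events lay on 41 nucleotides, and the strongest of these held 4.76%. The groups were well apart, both D27aa libraries were alike, and WT 2 was with the other WT libraries. The log2 fold change was 5.92 ± 0.70 (SE, adjusted p = 0.000238), and the summed events, 42 against 3, gave a ratio of 96.4 with a 95% counting interval of 30.8 to 486. The mutZn libraries held 27.3 and 29.5 CPM in this window. The anti-SRSF7 library of cells with the genotype WT held 23.7 CPM (5 events), and the anti-SRSF7 libraries GFP_OE 3 and GFP_OE 4, from SRSF7-GFP OE cells as the WT libraries are, held no event. D27aa without UV held 28.6 CPM (1 event) and WT without UV 22.5 CPM (2 events), above the UV-treated WT libraries, and the fit that leaves out windows above their no-UV control therefore gave this window no value. The window was called in each of the 16 alternatives that did, with an adjusted p of at most 0.0228. The only other window called in all 16 alternatives that gave it a value (it had none in the same fit) was on chromosome 2, minus strand, 18505001 to 18510000. It held 87.6 and 268 CPM in D27aa and 18.1, 10.9 and 18.5 CPM in WT (log2 3.55 ± 0.45 SE, adjusted p = 0.00149, at most 0.0438 over its alternatives).

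Apart from such stacks, 17 of the 140 higher windows had their D27aa events spread so that no nucleotide held 10% of them. They had log2 fold changes of 1.27 to 5.92 and 25 to 176 crosslinked nucleotides. All 17 were called without WT 2 and by limma-voom, 12 with each position counted once, 6 with the identifier as a block and 1 with every library thinned. In 10 of them both mutZn libraries were above all WT libraries. The windows were chosen for a WT level below D27aa, which favours other libraries lying above WT. Without a count over all tested windows, no conclusion is drawn from this. On chromosome 13, plus strand, 23670001 to 23675000 held 165 and 165 CPM in D27aa and 54.2, 42.8 and 38.7 CPM in WT (log2 2.00 ± 0.39 SE, adjusted p = 0.0207), with 97.2 and 86.9 CPM in mutZn. The D27aa libraries were alike and above all WT libraries. Levels without UV were 124 CPM (11 events) for WT and 172 CPM (6 events) for D27aa. On chromosome 17, plus strand, 80640001 to 80645000 held 159 and 121 CPM in D27aa and 27.1, 48.3 and 36.7 CPM in WT (log2 1.90 ± 0.33 SE, adjusted p = 0.0118), while mutZn was lower than WT at 8.83 and 11.5 CPM. On chromosome 2, minus strand, 168580001 to 168585000 held 39.8 and 36.0 CPM in D27aa, 4.51, 13.7 and 5.32 CPM in WT and 55.1 and 57.2 CPM in mutZn (log2 2.35 ± 0.52 SE, adjusted p = 0.0413). On chromosome 15, plus strand, 38910001 to 38915000 held 37.2 and 33.5 CPM in D27aa, 13.5, 7.28 and 7.85 CPM in WT and 40.1 and 37.5 CPM in mutZn (log2 2.17 ± 0.44 SE, adjusted p = 0.0277). These 4 were picked after their values were seen.

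The 46 windows lower in D27aa had log2 fold changes of -6.26 to -1.44 with a median of -2.10. The strongest WT nucleotide held a median of 2.47% of their WT events, compared with 2.0% over all windows tested and 17.8% in the higher windows. The median level was 13.3 and 15.4 CPM in D27aa and 36.1, 66.5 and 71.9 CPM in WT 2, WT 3 and WT 4. WT 2 was the lowest WT library in 36 of the 46 (78.3%), against 47.4% of all tested windows, and so lay between D27aa and the other WT libraries here too. Summed over the 46 windows, levels were 688 and 752 CPM in D27aa, 1995, 3840 and 3796 CPM in WT, 2183 and 2156 CPM in mutZn, 1705 and 2132 CPM in the GFP_OE libraries, and 1027 CPM in the anti-SRSF7 library of cells with the genotype WT. The library labelled D27aa without UV held 3036 CPM in them (106 events) and that of WT without UV 2921 CPM (260 events). The D27aa control exceeded the D27aa level in 38 of the 46 and the WT control in 41, against 3165 and 3055 of all 6740 windows. The 46 windows were chosen for a low D27aa level (median 14.4 CPM). A single event in the D27aa control is 28.6 CPM, and that control had no event in 8 of the 46. The contrast with all windows therefore follows from the choice of windows, and no conclusion is drawn from it.

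The 12 lower windows with the largest fold changes ranged from -6.26 to -2.41 on the log2 scale. On chromosome 14, plus strand, 20915001 to 20920000 had no event in either D27aa library and 8, 35 and 117 events in WT 2, WT 3 and WT 4, which is 36.1, 31.9 and 29.6 CPM. All 3 WT libraries were at nearly 1 level, and D27aa was at least 8.30-fold lower against a floor of 3 events over the D27aa group (adjusted p = 0.0180). On chromosome 12, plus strand, 12260001 to 12265000 held 2.66 and 0 CPM in D27aa (1 and 0 events) and 126, 118 and 114 CPM in WT, spread over 436 nucleotides. The log2 fold change was -6.05 ± 1.29 (SE, adjusted p = 0.00117), and the summed events gave a WT to D27aa ratio of 88.1 with a 95% counting interval of 15.8 to 3486. The mutZn libraries were near 0 in both windows, with 0.0849 and 0.155 CPM in the first and 0.510 and 0 CPM in the second. The anti-SRSF7 library of cells with the genotype WT was low too, with 0 and 4.73 CPM (0 and 1 events), while GFP_OE 3 and GFP_OE 4, from SRSF7-GFP OE cells, held 31.6 and 19.1 CPM in the first and 47.4 and 48.8 CPM in the second. Among the UV-treated libraries given here, these windows were thus high in those of SRSF7-GFP OE cells, with either antibody, and low in the rest. In the second the library labelled D27aa without UV held 6 of its 34916 placed events, or 172 CPM, at the WT level, while the UV-treated D27aa libraries held 1 of 764947 together.

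In the remaining 10 of these 12 windows the mutZn libraries held 10.3 to 135 CPM. On chromosome 8, minus strand, 53280001 to 53285000 held 26.6 and 12.9 CPM in D27aa, 90.3, 120 and 126 CPM in WT and 135 and 121 CPM in mutZn (log2 -2.46 ± 0.45 SE, adjusted p = 0.00845). On chromosome 17, plus strand, 88380001 to 88385000 held 5.31 and 7.72 CPM in D27aa, 36.1, 42.8 and 37.7 CPM in WT (log2 -2.41 ± 0.65 SE, adjusted p = 0.0267). In both windows the 3 WT libraries were close to each other and all above D27aa. WT 2 was the exception elsewhere. On chromosome 11, minus strand, 38155001 to 38160000 held 10.6 and 12.9 CPM in D27aa and 22.6, 186 and 162 CPM in WT (log2 -3.43 ± 0.84 SE, adjusted p = 0.0267). On chromosome 16, minus strand, 35980001 to 35985000 held 10.6 and 18.0 CPM in D27aa and 22.6, 157.5 and 142 CPM in WT (log2 -2.98 ± 0.75 SE, adjusted p = 0.0284). Of the 12, 2 held much of their WT signal on a single nucleotide, with 89.8% in the window from 20895001 on chromosome 12, plus strand, and 48.9% in that from 22805001 on chromosome 3, minus strand. All 12 lower windows were called without WT 2. Of the 12, 5 were called with each position counted once, 5 with the identifier as a block, and 1 each by limma-voom, with all libraries thinned, and without D27aa 1, D27aa 2, WT 3 or WT 4.

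Called windows rarely adjoined each other. The 140 higher windows formed 136 stretches and the 46 lower ones 45. The longest higher stretches had 2 windows, such as 65040001 to 65050000 on chromosome 9, minus strand, with 231 and 265 CPM in D27aa and 99.3, 32.8 and 29.9 CPM in WT, and 80635001 to 80645000 on chromosome 17, plus strand, with 197 and 157 CPM against 36.1, 56.4 and 45.1 CPM. The longest lower stretch was 149575001 to 149585000 on chromosome X, plus strand, with 23.9 and 41.2 CPM in D27aa and 72.2, 134 and 139 CPM in WT. Without WT 2 the stretches grew to 9 windows. The longest, 80645001 to 80690000 on chromosome 17, minus strand, was lower in D27aa, with 1384 and 1238 CPM against 2710 and 2761 CPM in WT 3 and WT 4, and WT 2, which had no part in that fit, stood with them at 2379 CPM. It was lower still in mutZn, at 1132 and 1134.5 CPM, and in the anti-SRSF7 library of cells with the genotype WT, at 109 CPM. The GFP_OE libraries held 1768.5 and 1786 CPM, WT without UV 1607 CPM and D27aa without UV 2492 CPM. Of 4 windows each were 122270001 to 122290000 on chromosome 6, minus strand, with 725 and 788 CPM in D27aa and 311, 381 and 410 CPM in WT, and 110780001 to 110800000 on chromosome 12, plus strand, with 683 and 729 CPM in D27aa and 45.1, 339 and 338 CPM in WT. Both were higher in D27aa than in every WT library, WT 2 included although it had no part in the fit, and higher still in mutZn, at 1039 and 1009 CPM in the first and 1187 and 1164 CPM in the second. The anti-SRSF7 library of cells with the genotype WT was above every WT library as well, at 918 and 535 CPM, and so were WT without UV at 461 and 584 CPM and D27aa without UV at 630 and 516 CPM.

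The 10 windows highest in D27aa and the 10 highest in WT were 14 windows in all, of which 1 passed the test with all 5 libraries, 2 with the header identifier as a block and 7 without WT 2. The 3 highest did not pass in any of these. On chromosome 17, minus strand, 80600001 to 80605000 was first in D27aa and in WT, with 10602 and 10085 CPM in D27aa and 15236, 10125 and 8314 CPM in WT (log2 -0.06 ± 0.41 SE, adjusted p = 0.957). The D27aa values lay within the WT range. On chromosome 19, minus strand, 5795001 to 5800000 held 8576 and 8733 CPM in D27aa and 8834, 7561 and 6532 CPM in WT (log2 0.24 ± 0.41 SE, adjusted p = 0.827). On chromosome 17, plus strand, 39980001 to 39985000 held 6716 and 7634 CPM in D27aa and 4862, 8323 and 6159 CPM in WT (log2 0.23 ± 0.41 SE, adjusted p = 0.842).

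Of the 10 windows highest in D27aa, 1 passed the test with all 5 libraries. It was 108870001 to 108875000 on chromosome 11, minus strand, with 1471 and 1504 CPM in D27aa and 772, 381 and 266 CPM in WT (log2 1.73 ± 0.41 SE, adjusted p = 0.0480), and with 1191 CPM in WT without UV. The call was lost with each position counted once (adjusted p = 0.189), with every library thinned (0.0612), with WT 3 and WT 4 thinned (0.0544), with no filter (0.759) and without D27aa 1, D27aa 2, WT 3 or WT 4 (0.299 to 0.391). On chromosome 6, minus strand, 128745001 to 128750000, which holds the strongest D27aa nucleotides, had 3144 and 2855 CPM in D27aa and 1711, 301 and 165 CPM in WT. Its log2 fold change was 2.11 ± 0.73 (SE, adjusted p = 0.166) with WT 2, 2.63 (adjusted p = 0.0436) with the identifier as a block and 3.81 (adjusted p = 1.67e-07) without WT 2. On chromosome 13, minus strand, 22110001 to 22115000 had 1243 and 1107 CPM in D27aa and 1065, 190 and 171 CPM in WT, with a log2 fold change of 1.39 (adjusted p = 0.304) with WT 2 and 2.80 (adjusted p = 2.47e-07) without it. In both windows WT 2 was nearer to D27aa than to WT 3 and WT 4. The windows from 78020001 on chromosome 9, minus strand, and from 68885001 on chromosome 11, plus strand, also passed without WT 2, with log2 fold changes of 1.01 (adjusted p = 0.00121) and 1.58 (adjusted p = 2.68e-05), compared with 0.54 and 0.81 with it. Among the windows highest in WT, 45705001 to 45710000 on chromosome 17, minus strand, had 332 and 340 CPM in D27aa and 564, 964 and 887 CPM in WT, a log2 fold change of -1.19 (adjusted p = 0.186) with WT 2 and -1.36 (adjusted p = 0.000187) without it. The window from 80670001 on the same strand had 417 and 386 CPM in D27aa and 727, 833 and 808 CPM in WT, with -0.91 (adjusted p = 0.316) and -0.93 (adjusted p = 0.00414).

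The authors' peak lists, which keep nucleotides whose score stands out from their surroundings, were called on summed replicates and allow no replicate test. Their headers name 2 summed library numbers for D27aa and 4 for WT, more than the WT libraries compared here. The WT list may therefore include a library outside this comparison, which was not tested. The D27aa list held 34759 nucleotides and the WT list, from a far larger sum, 2045481. They shared 19035 nucleotides, which is 54.8% of the D27aa list and 0.931% of the WT list, and within 15 nt 74.6% and 4.78%. The share of D27aa peaks that were also WT peaks rose with their score in the authors' list: it was 47.0% for a score of 1, 63.9% for 2 to 4, 86.2% for 5 to 9 and 91.3% for 10 or more.

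The mitochondrial chromosome held 0.323% and 0.384% of the events of D27aa 1 and D27aa 2 and 0.323%, 0.534% and 0.427% of those of WT 2, WT 3 and WT 4. The groups overlapped, and the difference of -0.0750 percentage points was within the spread of the WT libraries (exact permutation test, two-sided, p = 0.4, adjusted over 10 measures p = 0.8). The share was 1.34% in WT without UV and 0.384% in D27aa without UV. The share of events on the plus strand was 49.1% ± 0.154 (SD, n = 2) in D27aa and 49.1% ± 0.522 (SD, n = 3) in WT.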

How the data were processed

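Crosslink positions of 5 UV-treated anti-GFP iCLIP libraries were analysed, with 7 others for scale. The deposited score of each position is, per the file headers, the number of cDNAs on mm9 (annotation Ensembl 59), with a minus sign for the minus strand. CASAVA 1.4 is named in the submitters' processing notes. How reads were aligned and PCR copies removed is not given in the sources used here, and intervals cover counting error only. Per the file headers, the authors' peak score was tested with 100 permutations over 15 nt around it (false discovery rate 0.05).

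Absolute scores were summed per strand in windows of 5000 nt, and CPM is a sum per 1000000 events on placed chromosomes. Since the score is signed, the count tools planned first were replaced by a negative binomial quasi-likelihood F test in R 4.3.3 with squeezeVar of limma 3.58.1. Scaling was by a trimmed mean of log ratios (30% and 5% trimmed), with Benjamini-Hochberg adjustment at 0.05. Log2 fold changes include 0.5 added events per library on average, in proportion to library size. Windows were tested that reached the CPM of 10 events at the median total in 2 libraries and 15 events in all. The test was tested on simulated data. The fit used the 5 libraries with no covariate. The windows named are, in each direction, the 12 of largest fold change among called windows with non-overlapping groups, 20 events in the higher group and the same direction without WT 2, the 10 highest in each group, and the 5 longest stretches. Libraries were thinned by random draws without replacement. Members and lists were chosen with earlier results of these data known. Alternatives changed the libraries, depth, scaling, filter, test, window size and scoring. Fits without WT 2 that were thinned or used limma-voom, and a fit of D27aa 2 against WT 3 and WT 4 alone, whose spread comes from the WT libraries only, were added after seeing the data. Coordinates are 1-based.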

Additional observations from a re-analysis of the deposited data

How the results depend on the processing

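The 186 called windows became 212 with scaling to the library total alone, the 1 alternative within 1.5 times. Leaving out 1 library gave 23 (WT 4) to 660 (WT 2) calls. The count was 387 with the mutZn libraries in the fit, 38 with every library thinned to the shallowest, 70 with WT 3 and WT 4 thinned to the deeper D27aa library, 482 of 325426 windows with no filter, 533 by limma-voom, 58 counting each position once, 108 with the header identifier as a block and 27 of 2045 leaving out windows above their no-UV control. It was 48 of 2284 windows of 1000 nt and 455 of 12263 of 20000 nt. Added after seeing the data, D27aa 2 against WT 3 and WT 4 alone (1 library assumed to vary like the WT pair) gave 452, all but WT 2 thinned gave 640, and limma-voom without WT 2 gave 591. Over all fits with a value, the 12 higher named windows kept their direction and their call in 164 of 198 and lost the call in 34. The 12 lower ones kept both in 94 of 193, lost the call in 97 and turned in 2, both with each position counted once: chromosome 3, minus strand, from 22805001 to a log2 fold change of 0.18 (adjusted p = 0.957 in the limma-moderated test) and chromosome 12, plus strand, from 20895001 to 1.22 (adjusted p = 0.595). The cause was not tested.

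The mean share of D27aa events at WT nucleotides, 4.89%, was 7.13% within 1 nt, 1.24% counting each position once, 1.74% leaving out the 100 windows with the most events and 4.0% without WT 2. The mean variance ratio of D27aa against WT libraries, 1.95, was 3.25 in 1000 nt windows and 1.72 without those 100 windows. The shared part of the D27aa peak list, 54.8%, was 74.6% within 15 nt and 80.4% for scores of at least 5. The mitochondrial difference, -0.0750 percentage points, ranged from -0.127 to -0.0219 without 1 library in turn. No paired analysis was possible because the titles of the groups share a single replicate number, and the identifier block above is the only matched fit. Tests of genes, gene lists, sequence around sites and annotated regions were not run, for want of a genome of these files' build here. Depth limits the D27aa libraries: 1 event is 2.66 CPM in D27aa 1, 4.51 CPM in WT 2 and 28.6 CPM in the D27aa control.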
